A study of Mus musculus with 2 samples.

Results

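The results concern 9 genes, Plac8, Ccdc184, Asb2, Tubb6, Lilrb4a, Sv2c, Angptl2, Spp1 and Mmp9, among the 27998 genes listed in a single-cell RNA sequencing comparison of cells sorted from lymph node and from tumour. The genes were selected on a measured value, the higher transcript level in tumour cells than in lymph node cells, and for standing outside the usual lists of regulatory T cell genes. Their tumour to lymph node difference is therefore given as a description only. The lymph node group came from unchallenged mice and the tumour group from B16 tumours, a transplanted mouse melanoma, at day 14. Both groups were Foxp3Cre-YFP mice of the C57BL/6 strain, 5 to 8 weeks old, in which the Foxp3 locus drives Cre and a yellow fluorescent protein. Each group is 1 library of the droplet-based 10x Chromium 3' method, which counts each captured transcript once by a unique molecular identifier (UMI). The labels name neither the sort gate nor the number of mice. As each group is 1 library, there is no replicate check and differences carry no p-value. Intervals are at 95% and cover counting error only, and those of levels and ratios also treat every UMI as independent.

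Regulatory T cells hold other immune cells in check and depend on the transcription factor Foxp3. In tumours they commonly take on an activated, effector-like state with inhibitory receptors, chemokine receptors and cytotoxic proteins. Among the 9 genes, Spp1 (osteopontin), Mmp9 (a gelatinase) and Angptl2 (an angiopoietin-like glycoprotein) encode secreted proteins, Lilrb4a an inhibitory receptor of the immunoglobulin superfamily, and Sv2c a synaptic vesicle glycoprotein best known from neurons. Asb2 encodes the substrate-binding subunit of a cullin-5 ubiquitin ligase that directs filamins to degradation, Tubb6 a beta-tubulin, Plac8 a small cysteine-rich protein and Ccdc184 a coiled-coil protein.

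A barcode counted as a cell from 1811 UMIs in lymph node and from 3834 in tumour, with 200 genes or more and a mitochondrial share of 10% or less. Left out were those with UMIs of melanoma, macrophage or B cell genes above set limits. This left 2202 lymph node cells with a median of 4100 UMIs and 1457 tumour cells with a median of 8766 UMIs. Just outside and just inside the UMI thresholds lay barcodes of 1806 and 1813 UMIs in lymph node and of 3833 and 3836 UMIs in tumour. In tumour the filters removed 15 melanoma barcodes, the lowest with 172 melanoma UMIs against at most 10 in a kept cell, and 3 macrophage barcodes, the lowest with 73 macrophage UMIs against at most 2. In lymph node they removed 9 B cell and 2 macrophage barcodes. The cells of the libraries shared 1 barcode sequence. Levels are in CPM, UMIs scaled to a common total of each group of cells. Markers of regulatory T (Treg) cells, 8 genes with Foxp3 among them, summed to 2577 CPM in lymph node and 4830 CPM in tumour, and pan-T cell markers to 3619 and 4169 CPM. Of the Treg markers, Ctla4, Tnfrsf18, Tnfrsf4 and Ikzf2 were higher in tumour, and Foxp3, Il2ra, Ikzf4 and Izumo1r were lower. Macrophage markers were at 3.0 and 12.2 CPM, melanoma markers at 0.749 and 33.7 CPM and neutrophil markers at 0.749 and 1.14 CPM. The neutrophil genes S100a8, S100a9, Csf3r and Retnlg and the macrophage gene Adgre1 were at 0 in both. The other macrophage genes were higher in tumour, led by Apoe at 1.40 and 5.34 CPM and Cd68 at 0.936 and 3.60 CPM. The neutrophil gene Ly6g was also higher in tumour, and the neutrophil gene Cxcr2 was lower.

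By GENCODE M21 on the GRCm38 build the 9 genes are protein-coding and lie on 7 chromosomes. Spp1 is at chr5:104435118-104441050 on the plus strand and Plac8 on the same chromosome at chr5:100553725-100572245 on the minus strand. Mmp9 is at chr2:164940780-164955850 and Angptl2 at chr2:33216069-33247717, both on the plus strand, and Angptl2 overlaps Ralgps1 on the opposite strand. Asb2 is at chr12:103321142-103356001 and Sv2c at chr13:95954594-96132577, both on the minus strand and each overlapped by an antisense gene, Gm15523 and Gm17190. Ccdc184 is a gene of 1 exon at chr15:98167158-98170134 on the plus strand. No source used here states the strand setting of the counting. Whether reads of Asb2, Sv2c and Angptl2 were kept apart from reads of their antisense partners was therefore not checked. On their own strand Sv2c overlaps Gm20075 and Gm23955, and Spp1 overlaps Gm42793, which are not among the genes counted. Lilrb4a is at chr10:51480612-51496613 on the plus strand, where the annotation names the same identifier Gm49339 and also places Lilr4b and a Lilrb4a record. The value called Lilrb4a here is therefore uncertain between near-identical neighbours.

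The RefSeq promoter table on GRCm38.p6 held 6 of the 9 genes, without Tubb6, Lilrb4a and Mmp9. The bases before the annotated gene start are shown for Plac8, the most abundant gene of the set, for Asb2, the gene found in most tumour cells, and for Spp1, the gene held by the fewest. They were searched on both strands for the core letters of sites of factors active in stimulated or hypoxic T cells: AP-1 (TGANTCA), NFAT (TGGAAA), HIF (ACGTG), STAT (TTCNNNGAA) and RUNX (TGTGGT). The Plac8 stretch is chr5:100572246-100572455 on the minus strand, the Asb2 stretch chr12:103356002-103356251 on the minus strand and the Spp1 stretch chr5:104434861-104435110 on the plus strand. Each is written 5' to 3' with the motif letters in capitals.
Plac8: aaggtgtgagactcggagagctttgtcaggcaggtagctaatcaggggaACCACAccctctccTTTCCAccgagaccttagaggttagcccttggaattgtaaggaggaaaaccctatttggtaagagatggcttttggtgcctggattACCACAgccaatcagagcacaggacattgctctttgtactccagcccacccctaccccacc
Asb2: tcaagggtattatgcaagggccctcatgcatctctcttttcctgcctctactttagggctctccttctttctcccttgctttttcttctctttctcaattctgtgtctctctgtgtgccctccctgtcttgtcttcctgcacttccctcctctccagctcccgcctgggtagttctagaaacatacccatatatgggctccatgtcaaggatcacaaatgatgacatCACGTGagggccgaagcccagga
Spp1: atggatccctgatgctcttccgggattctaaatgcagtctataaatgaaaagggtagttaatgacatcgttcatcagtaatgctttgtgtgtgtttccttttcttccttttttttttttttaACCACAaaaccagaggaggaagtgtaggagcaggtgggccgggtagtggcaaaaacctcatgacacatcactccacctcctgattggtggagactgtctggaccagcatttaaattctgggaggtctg
In Plac8 the capitals mark the RUNX letters on the reverse strand, ACCACA, at -201 and -101 from the RefSeq start, and the reverse NFAT letters, TTTCCA, at -187. In Asb2 they mark CACGTG at -23, which reads as the HIF letters on both strands, and in Spp1 the reverse RUNX letters at -128. The Angptl2 and Sv2c stretches held none of the 5 motifs. The Ccdc184 window, which held the HIF letters, lies inside the annotated gene and is not shown. Plac8, Asb2 and Spp1 each had a second RefSeq start inside the gene, also not shown. The windows before these starts held NFAT and HIF letters for Plac8, RUNX letters for Asb2 and NFAT letters for Spp1. The Plac8 stretch has 210 bases, fewer than the windows counted next. Over 32851 promoter windows of 250 bases, the AP-1 letters were found in 6.75%, NFAT in 18.6%, HIF in 16.6%, STAT in 7.02% and RUNX in 14.0%, so a match in 1 gene is a description and not a site.

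Of the secreted proteins, Spp1, a ligand of integrins and CD44, had 2 UMIs in lymph node cells and 143 UMIs in tumour cells, or 0.187 and 8.58 CPM. The tumour level was 45.8-fold the lymph node level (12.5 to 382). Mmp9, which cleaves denatured and basement membrane collagen, had 7 and 304 UMIs, 0.655 and 18.2 CPM, a 27.8-fold ratio (13.3 to 69.8). Both had single-digit counts in lymph node, and their intervals are correspondingly wide. Angptl2, a secreted glycoprotein linked to inflammation, had 76 and 509 UMIs, 7.12 and 30.5 CPM, a ratio of 4.29 (3.37 to 5.54). Angptl2 had a lower fold than Spp1 and Mmp9 and a higher level than both in each tissue.

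Of the membrane proteins, Lilrb4a, whose cytoplasmic tail carries inhibitory motifs, had 3 UMIs in lymph node cells and 657 in tumour cells, or 0.281 and 39.4 CPM. Its ratio was 140 (47.8 to 682). Sv2c had 92 and 639 UMIs, 8.61 and 38.3 CPM, a ratio of 4.45 (3.57 to 5.60). The tumour levels of both genes were close, and their folds differ through the lymph node counts.

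Of the intracellular proteins, Plac8 had the most transcripts, with 51 UMIs in lymph node cells and 6216 in tumour cells, or 4.77 and 373 CPM. Its ratio was 78.1 (59.3 to 105). In lymph node its 2 highest cells held 41.2% of its UMIs, and 18 further UMIs lay in 7 of the 9 B cell barcodes that were removed. Asb2 had 12 and 1606 UMIs, 1.12 and 96.3 CPM, a ratio of 85.8 (49.0 to 166). Tubb6, at chr18:67390717-67402749 on the plus strand, had 10 and 1047 UMIs, 0.936 and 62.8 CPM, a ratio of 67.1 (36.3 to 140). Ccdc184 had 0 UMIs in the lymph node cells and 458 UMIs, 27.5 CPM, in the tumour cells. Against a floor of 3 counts over the lymph node cells the tumour level was 97.8-fold higher. The lower bound of the exact interval, which needs no floor, was 79.2-fold. These 4 genes formed a group with large folds and tumour levels from 27.5 to 373 CPM, while the cytotoxic protease Gzmb reached 881 CPM and the chemokine Ccl4 381 CPM.

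The whole interval of the ratio lay above 2-fold for 9 of the 9 genes, beside 8.8% of the 9976 genes with at least 50 UMIs, a count that the choice of genes fixed, and 0 of the 9 were at least 2-fold lower, beside 7.7%. By the ratio alone, 13.2% of all genes were at least 2-fold higher. The median log2 ratio was 6.07 over the 9 genes and 0.14 over all 9976. When all genes were ordered by the lower bound of the ratio, Ccdc184 was at rank 3, Plac8 at 5, Asb2 at 6, Lilrb4a at 7, Tubb6 at 10, Mmp9 at 47 and Spp1 at 49. Sv2c was at rank 320 and Angptl2 at rank 357, next to Stil and to Mki67, so the description of the set as the strongest gains does not hold for these 2 genes. Ccl4 and Gzmb stood on either side of Ccdc184, and Cables1 stood just above Tubb6. Foxp3 itself had 234 and 286 UMIs, 21.9 and 17.2 CPM, a ratio of 0.783 (0.657 to 0.935).

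Because tumour cells were deeper, shares of cells with a UMI were compared with every cell thinned at random to 1811 UMIs. Plac8 was then found in 17.3% of tumour cells (15.4 to 19.3) and 0.409% of lymph node cells, and Asb2 in 17.2% (15.3 to 19.2) and 0.318%. Lilrb4a was found in 8.51% and 0.045% of cells, Tubb6 in 7.41% and 0.136%, and Sv2c in 6.31% and 1.82%. Angptl2 was found in 5.01% and 1.45%, Mmp9 in 4.60% and 0.136%, and Spp1 in 1.51% and 0 lymph node cells. Ccdc184 was found in 3.91% of tumour cells and 0 of 2202 lymph node cells, which allows a share of up to 0.136% by a floor of 3 cells and 0.167% by the exact interval. Plac8 and Asb2 were thus the only genes of the 9 in at least 10% of tumour cells at this depth, beside 22.2% of all genes.

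**Figure D1:**
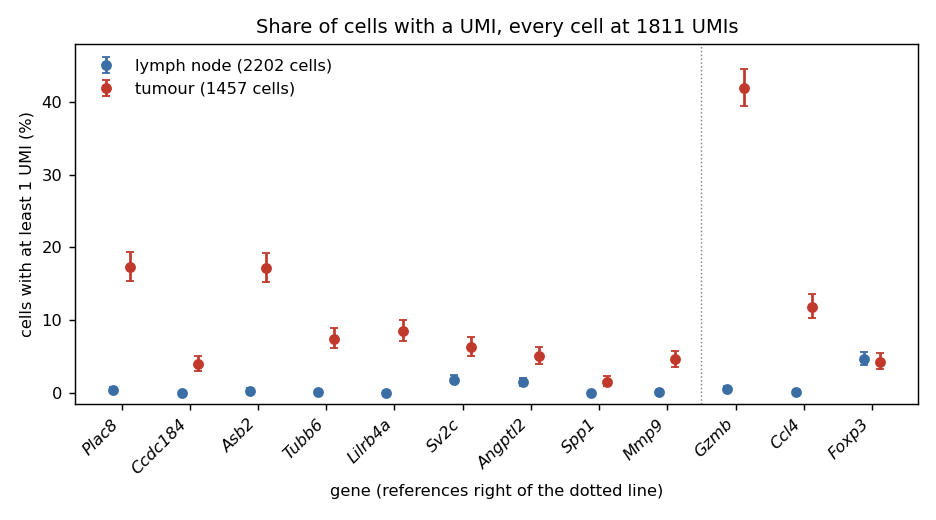
Share of the cells of each tissue with at least 1 UMI of each gene, in percent on a linear axis, with every cell thinned to 1811 UMIs and Gzmb, Ccl4 and Foxp3 as references right of the dotted line. Points are shares and bars exact binomial 95% intervals; Plac8 and Asb2 lead the 9 genes in tumour at 17.3% and 17.2%, and Spp1 is lowest at 1.51%.

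At full depth Asb2 was found in 48.2% of tumour cells, Plac8 in 34.1%, Tubb6 in 33.2%, Sv2c in 25.1% and Lilrb4a in 22.0%. Angptl2 was found in 19.8%, Ccdc184 in 14.6%, Mmp9 in 12.7% and Spp1 in 3.91%. At that depth 8 of the 9 genes were in at least 10% of tumour cells, beside 67.3% of all genes. The full-depth lymph node shares ran from 0 for Ccdc184 to 3.68% for Sv2c.

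Counting the genes of the set within each cell at 1811 UMIs, 50.8% of tumour cells (740 cells) and 4.09% of lymph node cells (90 cells) held at least 1 of the 9. At least 2 were held by 16.6% of tumour cells and 0.227% of lymph node cells. At 3834 UMIs, 71.2% of tumour cells held at least 1 of the genes, 35.1% at least 2 and 12.6% at least 3. The most in any tumour cell was 6 genes, in 1 cell, and 419 cells held none. No cell held all 9 genes.

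The genes differed in how their UMIs were divided among the tumour cells. Plac8 was the most uneven of the well-detected ones. Of the 497 tumour cells with a Plac8 UMI, 185 had 1 UMI and 177 had 10 or more, and those 177 cells held 87.8% of its UMIs. The highest cell had 118 Plac8 UMIs, and 59 cells held 50% of the total. Thinned to 3834 UMIs per cell, the variance of Plac8 over cells was 12.7 times its mean, a Fano factor, against a median of 1.21 over 132 genes within 1.2-fold of its mean. Asb2 had the opposite shape: 311 of its 702 positive cells had 1 UMI, 4 had 10 or more, and 174 cells held 50% of its UMIs. Its Fano factor was 1.63, against 1.06 for genes of like mean.

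**Figure D2:**
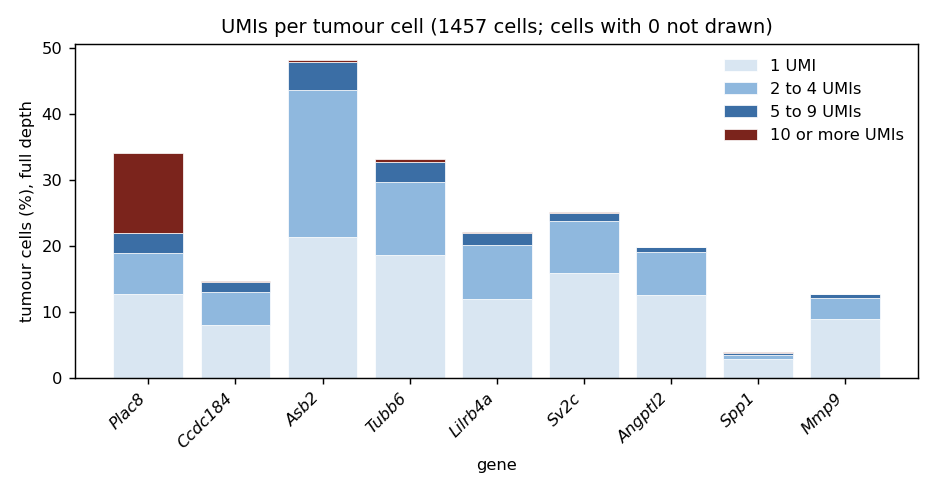
Stacked bars of the percent of the 1457 tumour cells with 1, 2 to 4, 5 to 9, or 10 or more UMIs of each gene at full depth, cells with 0 not drawn. The class of 10 or more UMIs is wide only for Plac8, with 177 cells, while Asb2 has the tallest bar at 48.2% and 4 cells in that class.

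Lilrb4a had a Fano factor of 2.13, Angptl2 of 1.75, Ccdc184 of 1.73, Mmp9 of 1.60, Tubb6 of 1.45 and Sv2c of 1.39, each against a median of 1.03 to 1.04 for genes of like mean. In most positive cells of these 6 genes 1 UMI was seen or a few, with maxima of 11 to 16 UMIs. Spp1 stood apart: its Fano factor was 7.95, and of its 143 UMIs 34.3% came from 2 cells, with 27 and 22 UMIs. Those 2 cells held 32 and 52 UMIs of pan-T cell markers, 47 and 71 of Treg markers and 0 of macrophage, neutrophil, dendritic and fibroblast markers, and the first held 1 melanoma marker UMI and the second 0. The third cell had 8 Spp1 UMIs. In lymph node Spp1 was found in 2 cells only. Leaving out the 10 highest cells of each library therefore had to leave no lymph node UMI, and the ratio that follows is no test of the gain. Against a floor of 3 counts Spp1 was then 11.3-fold higher in tumour, or 3.50 on the log2 scale. The lower bound of the exact interval was 3.15 on that scale. For comparison, the Fano factor was 18.1 for Gzmb, 64.9 for Ccl4 and 1.11 for Foxp3.

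RNA outside the called cells was measured in 69341 tumour barcodes of 10 to 100 UMIs, with a median of 53 UMIs. Plac8 was at 413 CPM there against 373 CPM in the cells, Tubb6 at 70.4 against 62.8, Ccdc184 at 34.0 against 27.5 and Spp1 at 13.8 against 8.58, so these 4 genes were no higher in the cells than in the small barcodes. Lilrb4a was at 36.9 against 39.4 CPM, Angptl2 at 28.4 against 30.5, Sv2c at 32.9 against 38.3, Asb2 at 70.7 against 96.3 and Mmp9 at 10.1 against 18.2. The cell level over the small-barcode level thus ran from 0.621 for Spp1 to 1.81 for Mmp9. Gzmb had 1.13 and Ccl4 0.815 by the same measure, while Foxp3 had 8.07.

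The 15 melanoma barcodes, with a median of 70488 UMIs, give the level in a cell type of another lineage in the same tumour. Plac8 was at 11.3 CPM there, 3.03% of its level in the T cells, Lilrb4a at 0.807 CPM, Mmp9 at 0.807, Sv2c and Ccdc184 each at 1.61 and Asb2 at 5.65. These 6 genes were at 2.05% to 5.88% of their T cell levels, and Angptl2, at 8.07 CPM, was at 26.4%. Tubb6 was at 96.9 CPM in the melanoma barcodes (80.3 to 116) and Spp1 at 41.2 CPM (30.7 to 54.1), both above their levels in the T cells. Thinned to 3834 UMIs, Tubb6 was found in 5 of the 15 melanoma barcodes (33.3%, 11.8 to 61.6) against 15.0% of T cells. Spp1 was found in 1 of 15 (6.67%, 0.169 to 31.9) against 1.44%. Plac8 was found in 2 of 15 (13.3%, 1.66 to 40.5) against 24.0%, and Ccdc184 in 1 of 15 (6.67%, 0.169 to 31.9) against 7.41%. None of the other genes was found there. With 15 barcodes these intervals are too wide for the shares to set the genes apart. By their levels, Tubb6 and Spp1 are not read as expression particular to the T cells. In the 3 macrophage barcodes of the tumour, Plac8 and Lilrb4a were each at 491 CPM, Spp1 at 365 CPM and Tubb6 at 277 CPM. The other 5 genes were at 0 there. Plac8, at 373 CPM in the T cells, and Lilrb4a, at 39.4 CPM, were thus above their T cell levels in these 3 barcodes. They too are not read as expression particular to the T cells. Macrophage markers summed to 13.6 CPM in tumour cells with a Plac8 UMI and 11.3 CPM in those without, and to 53.5 CPM in the 10 cells with most Spp1. Neutrophil markers summed to 3.95 CPM in tumour cells with an Mmp9 UMI and 0.806 CPM in those without, carried by 4 of the 185 cells, and to 2.57 CPM in cells with Lilrb4a and 0.759 CPM in those without, carried by 6 of the 321 cells. The part of RNA from other cells in the levels of the 9 genes was not tested.

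**Figure D3:**
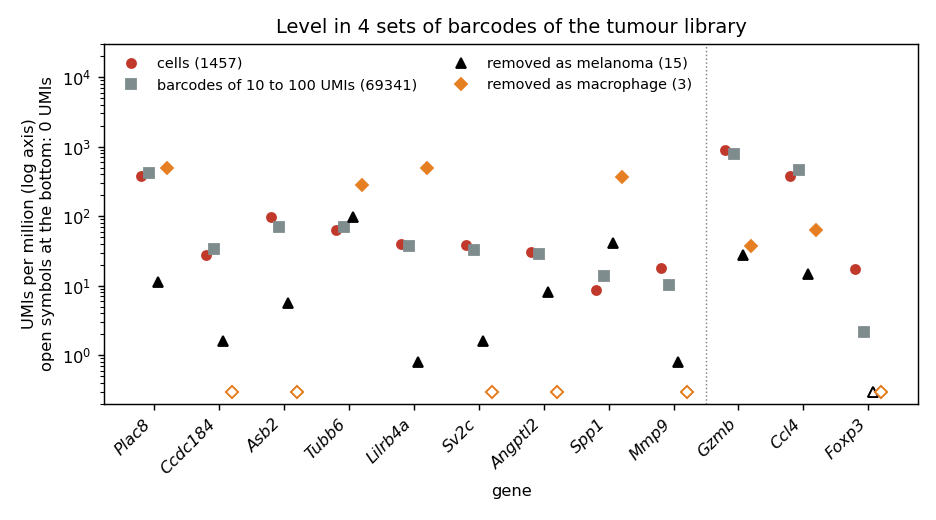
Level of each gene in CPM on a log axis in 4 sets of tumour barcodes: the retained cells, small barcodes of 10 to 100 UMIs, and the 15 melanoma and 3 macrophage barcodes removed, with open symbols at the bottom for 0 UMIs and references right of the dotted line. Points carry no error bars. Tubb6 and Spp1 are higher in melanoma barcodes than in the cells, at 96.9 and 41.2 CPM. In macrophage barcodes Plac8, Lilrb4a, Spp1 and Tubb6 are higher than in the cells.

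In lymph node the same comparison put Plac8 at 10.7 CPM in small barcodes against 4.77 CPM in cells, Sv2c at 9.96 against 8.61 and Angptl2 at 8.05 against 7.12. The lymph node levels of these genes were no higher than outside the cells, so by level alone these UMIs cannot be told apart from RNA outside the cells. Over the lymph node cells, Angptl2 was found with certain other genes. Of the 54 cells with an Angptl2 UMI, 38.9% also had a UMI of Timp2, a metalloproteinase inhibitor, against 7.12% of the others, with median depths of 4407 and 4088 UMIs and the partner genes thinned to 1811 UMIs. Tbc1d4, a Rab GTPase-activating protein, was found in 37.0% against 11.3% and the costimulatory receptor Tnfrsf9 in 27.8% against 8.89%. These partner genes were chosen after their values were seen.

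Within the tumour, cells were divided by whether they held a UMI of Gzmb, a UMI of Ccl4, or 3 or more UMIs of 21 mitotic genes, each at 3834 UMIs per cell. These are classes of cells in 1 library, so the values describe that library. The intervals of cells with and without mitotic UMIs were apart for 4 of the genes, and in another draw of the thinning for the same 4. Tubb6 was found in 21.7% of the 446 mitotic cells (18.0 to 25.9) and 12.1% of the 1011 others (10.1 to 14.2). Lilrb4a was found in 6.73% (4.58 to 9.46) and 16.8% (14.6 to 19.3), and Mmp9 in 3.81% (2.24 to 6.03) and 10.4% (8.57 to 12.4). Asb2 was found in 23.1% (19.3 to 27.3) and 32.2% (29.4 to 35.2). The mitotic cells thus held Tubb6 more often, and the receptor, the protease and the ligase subunit less often. Plac8 was found in like shares, 24.4% and 23.8%, at levels of 280 and 446 CPM. Before thinning the mitotic cells had a median of 17012 UMIs and the others 7013 UMIs, and the part of depth in these differences was not tested.

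Of the 749 tumour cells with a Gzmb UMI, 10.9% held Mmp9 (8.80 to 13.4), against 5.65% of the 708 without (4.07 to 7.61). Sv2c was found in 14.6% (12.1 to 17.3) and 9.18% (7.16 to 11.6). Ccdc184 ran the other way, in 4.94% of cells with Gzmb (3.50 to 6.75) and 10.0% of those without (7.92 to 12.5). Plac8, at 24.7% and 23.3%, and Lilrb4a, at 14.0% and 13.4%, had overlapping intervals, as had Tubb6 and Angptl2. Asb2 was found in 32.2% (28.8 to 35.7) and 26.6% (23.3 to 30.0), with overlapping intervals, but in another random draw of the thinning its intervals were apart, at 32.7% (29.3 to 36.1) and 24.96% (21.8 to 28.3).

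Of the 258 cells with a Ccl4 UMI, 20.2% held Angptl2 (15.4 to 25.6), against 8.84% of the 1199 without (7.29 to 10.6), and the Angptl2 levels were 79.9 and 29.2 CPM. With another random draw of the thinning these shares were 15.3% and 8.88%, and the levels 58.1 and 28.2 CPM. Sv2c was found in 17.4% and 10.8%, and Tubb6 in 21.7% and 13.6%, but in the other draw the intervals overlapped for both, at 17.5% and 11.7% for Sv2c and 16.8% and 14.7% for Tubb6. Mmp9 was found in 7.75% and 8.51%, Lilrb4a in 13.6% and 13.8%, and Ccdc184 in 7.75% and 7.34%, so the intervals of these genes overlapped. Spp1 was in too few cells, 21 at this depth, for its shares to be compared between the Gzmb, Ccl4 or mitotic classes.

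**Figure D4:**
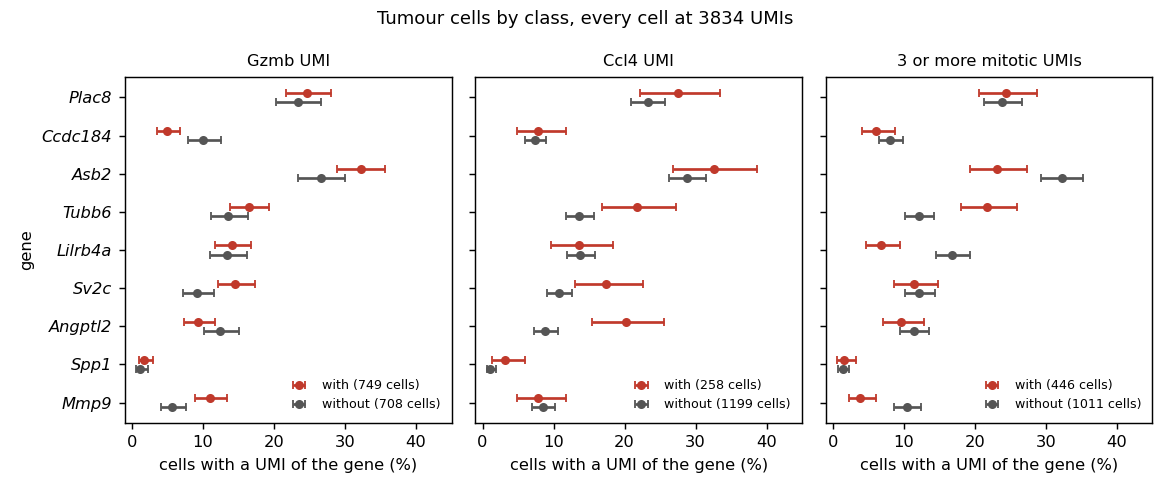
Share of tumour cells with a UMI of each gene, in percent, in cells with (red) and without (grey) a Gzmb UMI, a Ccl4 UMI, or 3 or more mitotic UMIs, 1 panel each, with every cell at 3834 UMIs. Points are shares and bars exact binomial 95% intervals; Lilrb4a, Mmp9 and Asb2 are lower in mitotic cells and Tubb6 higher, and Angptl2 is higher in cells with Ccl4.

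In the 113 cells with a Foxp3 UMI, Lilrb4a was found in 23.0% (15.6 to 31.9) against 12.9% of the others, and Mmp9 in 15.9% (9.72 to 24.0) against 7.74%. With another draw of the thinning these were 20.3% against 13.5% for Lilrb4a and 14.4% against 7.32% for Mmp9, and the intervals of both overlapped, so neither difference held in both draws. The other 7 genes had overlapping intervals in the first draw. In the 87 cells with a UMI of Ccr7 or Tcf7, genes of resting and lymph node-homing T cells, Asb2 was found in 13.8% (7.34 to 22.9, 12 cells) against 30.4% of the others. Tubb6 was found in 4.60% (1.27 to 11.4, 4 cells) against 15.7%, and Mmp9 in 1.15% (0.0291 to 6.24, 1 cell) against 8.83%. The other draw gave 82 such cells, with Asb2 in 9.76% against 30.1%, Tubb6 in 6.10% against 15.6% and Mmp9 in 1.22% against 8.29%. Plac8, at 21.8% and 24.2%, and Lilrb4a, at 13.8% and 13.7%, had like shares on either side. This class was added after the data were seen.

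Correlations across the 1457 tumour cells at 3834 UMIs were weak. Each is Pearson's r of log2(thinned count + 1) over cells of 1 library and is a description. To Gzmb, Sv2c had r = 0.14 and Mmp9 0.14, and 2 of the 9 genes were at 0.1 or more. Beside them stood 3.41% of the 5901 genes with a UMI in at least 5% of tumour cells, the filter also used for Ccl4 and the mitotic genes. Spp1, in 1.44% of cells, falls below that filter, and 2 of the 8 other genes reached 0.1. The count over the 9 was 3 in 4 of the 6 alternatives computed. To Ccl4, Angptl2 had r = 0.12 and was the only 1 of the 9 at 0.1 or more, beside 1% of genes. To the summed mitotic genes, Tubb6 had r = 0.16, 1 of 9 beside 9.43% of genes, while Lilrb4a had r = -0.13, Asb2 -0.12 and Mmp9 -0.12. Plac8 had r = -0.02 to Gzmb, 0.07 to Ccl4 and -0.03 to the mitotic genes. Gzmb and Ccl4 were themselves at r = 0.03. In sparse counts values this small are not findings.

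**Figure D5:**
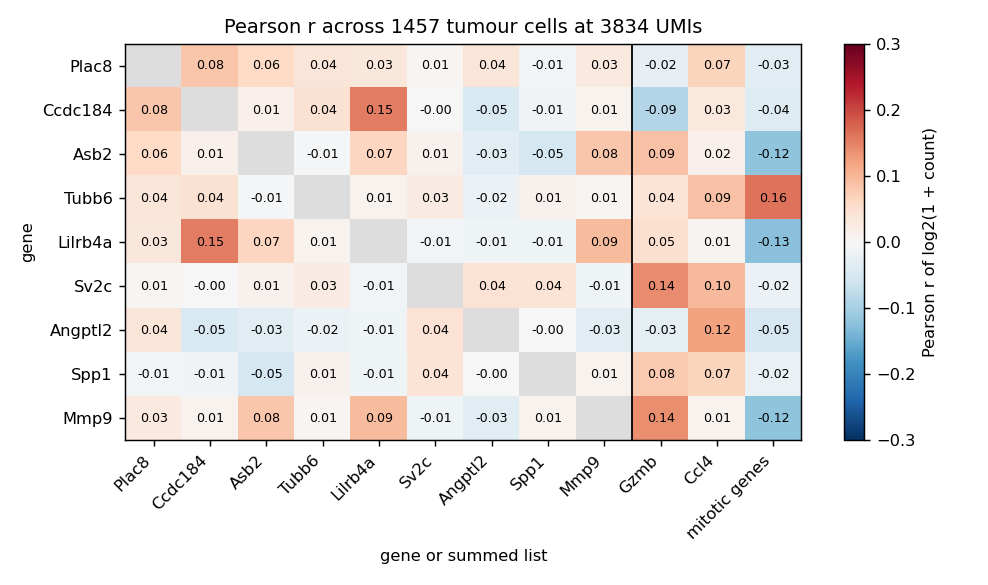
Heat map of Pearson r of log2(count + 1) across the 1457 tumour cells at 3834 UMIs, between the 9 genes (left of the line) and of each with Gzmb, Ccl4 and the sum of 21 mitotic genes (right of it), with r printed in each square. Values right of the line lie between -0.13 and 0.16, and the highest left of it is 0.15, for Ccdc184 and Lilrb4a.

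Among the 36 pairs of the 9 genes, r ran from -0.05 to 0.15 with a median of 0.01. The pair with r = 0.15 was Ccdc184 and Lilrb4a: 26 of the 108 Ccdc184 cells (24.1%) held Lilrb4a, which is 13.0% of the 200 Lilrb4a cells. No other pair reached 0.1.

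The genes most alike to each of the set over tumour cells, by r among 5901 genes in at least 5% of cells, were named without regard to function. For Plac8 they were Litaf and the inhibitory receptor Lag3, each at r = 0.17, and the chemokine Ccl5 at 0.15. For Ccdc184 they were the decoy receptor Il1r2 and the tetraspanin Cd81, each at 0.17, and Bcl2a1d at 0.16. For Asb2 they were the interferon-inducible surface gene Ly6a at 0.20, Npc2 at 0.19 and Ly6e at 0.19. Asb2 thus had among the highest of these weak values.

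For Tubb6 they were Birc5 at 0.17 and Anxa2 at 0.16, the former a gene of cell division, followed by the cyclin Ccnb2. For Lilrb4a, Shisa5 led, followed by B2m and Pglyrp1, each at 0.19. For Sv2c they were Smox at 0.15, Gzmb at 0.14 and Cst7 at 0.14. For Angptl2 they were Lag3 at 0.19, the granule gene Nkg7 and Plek at 0.17. For Mmp9 they were Malat1, H2-K1 and the chemokine receptor Ccr2, each at 0.16. Spp1 was in too few cells to be ranked.

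The families of the 9 genes are described by counts over their genes with at least 20 UMIs, and each count includes the gene of the set, which was chosen for being higher. Over all 11035 genes with as many UMIs, 14.3% had a tumour level 2-fold or more above the lymph node level and 9.66% 2-fold or more below it. Of 11 measured genes of the ASB family and its ligase, Asb2 alone was at least 2-fold higher in tumour and none was at least 2-fold lower, with a median log2 ratio of 0.21. The ligase partners Tceb2, Tceb1 and Rnf7, the most abundant of the list, were at 1.43-fold, 1.71-fold and 1.35-fold, and the filamin gene Flna, whose product is a known target of the ligase, at 1.19-fold. Of 11 tubulins, 4 were at least 2-fold higher and 2 at least 2-fold lower, with a median log2 ratio of 0.80. The most abundant, Tubb5, Tuba1b and Tubb4b, were at 1.70-fold, 2.10-fold and 2.31-fold, and the lower genes were Tubb2a and Tubb2b. All 21 mitotic genes were at least 2-fold higher, with a median log2 ratio of 2.09.

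Of 7 measured genes of Spp1 and its receptors, 4 were at least 2-fold higher, beside 14.3% of all genes. They were Spp1, which was chosen for being higher, and the integrin subunit genes Itgav, Itgb3 and Itgb5. Itgav was at 5.64-fold, Itgb3 at 3.02-fold, Cd44 at 1.46-fold and Itgb1 at 0.94-fold. Of 5 measured metalloproteinase and inhibitor genes, 2 were higher and 2 lower, beside 14.3% and 9.66% of all genes. The higher genes were Mmp14 and Mmp9, the latter chosen for being higher. Mmp14 had 5 and 30 UMIs, Mmp11 113 and 18 UMIs, and the inhibitor Timp2 was at 1.85-fold. The lower genes were Mmp11 and Reck, a membrane-bound inhibitor. Of 3 measured angiopoietin-like genes, Angptl2 was higher, Angptl4 was at 1.76-fold and Angptl6 was lower. Sv2a was lower in tumour while Sv2c was higher. Lilr4b, the near-identical neighbour of Lilrb4a, had 1 UMI in lymph node and 156 UMIs in tumour. Family members other than the most abundant are named here because the counts are small, and were chosen after their values were seen.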

How the data were processed

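Cells sorted from lymph node and from B16 tumour were profiled by 10x Chromium 3' sequencing, 1 library each. The authors deposited unnormalized UMI counts of 27998 genes for every barcode. Per the submitters' processing notes, Cell Ranger and the mm10 build were used, and no version or annotation is named. The libraries held 14000036 and 23618037 UMIs, of which the retained cells held 10681101 (76.3%) and 16669263 (70.6%).

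The UMI threshold was 10% of the 99th percentile of the 3000 largest barcodes. Barcodes were then dropped with 20 or more UMIs of Pmel, Dct and Mlana, 3 or more of C1qa, C1qb and Lyz2, or 2 or more of Cd79a and Ms4a1. No doublet caller was run, so doublets were kept. Counts were summed over cells and divided by their total to give CPM. Ratios carry exact conditional binomial intervals, shares exact Clopper-Pearson intervals and levels exact Poisson intervals, all at 95%. Ratios were taken for the 9976 genes with at least 50 UMIs, with a floor of 3 counts in a group that had none. Families used genes with at least 20 UMIs. Cells were thinned without replacement to the lymph node threshold between tissues and to the tumour threshold within tumour, so no cell was left out.

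The 9 genes and the gene lists were chosen with earlier results of these data known. Named genes are the 9, Gzmb, Ccl4 and Foxp3, the 3 genes most alike to each, the genes ranked next to them and up to 3 genes of each family by UMI total; a few of these are not reported here. Coordinates come from GENCODE M21, in which 27722 of the 27998 identifiers were found. Python 3.11.15 with numpy 2.4.6, scipy 1.17.1 and pandas 2.3.3 was used, and edgeR 4.0.16 in R 4.3.3 for TMM scaling only. The ratio and interval code was tested on simulated data. Alternatives were other cell filters and thresholds, subsets of cells, other scalings, another seed and other gene minimums.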

Additional observations from a re-analysis of the deposited data

How the results depend on the processing

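The count of genes whose whole interval lay above 2-fold was 9 in each alternative that gives intervals except with only the 211 lymph node and 244 tumour cells that had a Foxp3 UMI, where it was 8, without Spp1. A mean over cells gives no interval, and by it the ratio alone was above 2-fold for 9. The lowest ratios over the settings were 36.1 for Plac8, 10.1 for Ccdc184, 40.0 for Asb2, 29.2 for Tubb6, 19.6 for Lilrb4a, 3.10 for Angptl2, 7.36 for Spp1 and 15.3 for Mmp9. The highest were 491 for Plac8 and 324 for Asb2, both without the 10 cells with most UMIs of the gene in each library. That setting took out 10 of the 17 lymph node cells with Plac8 and all 7 with Asb2. It also left no lymph node UMI of Tubb6, Lilrb4a, Mmp9 and Spp1, so its count of 9 is no test of the gain. Where a setting left no lymph node UMI, the ratios given are against the floor of 3 counts. The median log2 ratio of the 9 genes ran from 3.94, in the cells with a Foxp3 UMI, to 6.32. In the cells with a Foxp3 UMI, Ccdc184, Asb2 and Lilrb4a had no UMI in the 211 lymph node cells. Their ratios there are set by the floor over a small total. The median of 3.94 is the value of Mmp9, which kept lymph node UMIs, so it is not itself a floor value. Plac8, Tubb6, Mmp9 and Spp1 also kept lymph node UMIs and had lower ratios there than over all retained cells. Angptl2 had nearly the same ratio and Sv2c a higher one. For each of these genes the interval overlapped that over all retained cells. Whether the gain was smaller in cells with a Foxp3 UMI was not tested. TMM scaling moved the median of all genes by -0.10 on the log2 scale and gave 1180 genes at least 2-fold higher, against 1313. Of the calls at least 2-fold apart, 57.3% were then higher, against 63.1%. The number of genes in at least 10% of tumour cells was 8, fell to 4 when 2 UMIs were asked for, and was 2 at the lymph node depth. Both settings were added after the data were seen. The number with r to Gzmb of at least 0.1 was 2, and 3 in each of the 4 settings named next. The number with r to Ccl4 of at least 0.1 was 1, but 3 on full counts scaled to the same total, 3 in cells above a doubled UMI threshold, 3 without mitotic cells and 2 with a second seed, also added later. The r of Tubb6 to mitotic genes ran from 0.14 to 0.30 and of Angptl2 to Ccl4 from 0.11 to 0.26. The cause of these differences was not tested. No paired analysis was possible because each group is 1 library. With 1 library in each group, differences between mice, sorts or libraries cannot be told apart from the tissue, and genes at a few UMIs have wide intervals.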

Other observations

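Across tumour cells the genes least alike to some of the 9 were of 1 kind, and they were looked up after the values were seen. For Lilrb4a the lowest Pearson r values were with the ribosomal protein genes Rpl10a at -0.21, Rpsa at -0.21 and Rps20 at -0.20. For Mmp9 Rpl28 at -0.18 and Rps2 at -0.18 were among the lowest, and for Tubb6 the lowest were with Rpl13a at -0.16 and Rps27 at -0.15. The interferon-gamma receptor gene Ifngr1 was among the 3 lowest for both Ccdc184, at -0.12, and Angptl2, at -0.11. These are correlations over the 1457 cells of 1 library at equal depth and are given as a description.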
